A study of Rattus norvegicus with 232 samples.

Results

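Brain gene expression was compared between the inbred rat strains F344/NHsd and LEW/SsNHsd, which made up 6 of the 232 samples of a survey of whole brain in the Hybrid Rat Diversity Panel, a set of inbred and recombinant inbred rat strains. The members were taken by their strain label, with 3 animals of F344/NHsd and 3 of LEW/SsNHsd. The related substrains F344/NCrl, F344/Stm and LEW/Crl were left out. All 6 animals were untreated males, young adults by the study's methods and obtained from a commercial breeder, and the labels name no engineered allele in either inbred strain. The labels state that no animal was exposed to alcohol or other drugs or tested for behaviour, and no stress test was part of the design. By the methods, the rats were killed with carbon dioxide and decapitated. Whether the animals differed in acute stress when they were killed was not measured, so the values need not be those of a resting state. The tissue was whole brain by the label. The methods state that each brain was cut along the midline before freezing and that only 1 side was used for RNA sequencing. Total RNA depleted of ribosomal RNA was sequenced from 1 library per animal. The batch label gave 11 for all 6 libraries, while the sample titles gave 9 for replicate 1 and 8 for replicates 2 and 3 of both strains, so either numbering was balanced between the strains.

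F344 (Fischer) and Lewis rats are a classic pair in stress research. The stress axis begins with corticotropin-releasing hormone and vasopressin from the hypothalamus, which release adrenocorticotropic hormone from the pituitary and glucocorticoids from the adrenal gland, and glucocorticoids return to the brain to act on the mineralocorticoid and glucocorticoid receptors. F344 rats are known for a strong and long corticosterone response, Lewis rats for a blunted one and for their susceptibility to experimental autoimmune and inflammatory disease. The comparison asked which transcripts differed between the brains of untreated animals of the pair, and whether those of the stress axis were among them.

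The 4 stretches of promoter sequence below belong to immune genes called in both directions and to a stress gene, and were chosen after their values were seen. Itgam and Siglec5 were called higher in F344/NHsd and C3ar1 was called lower, while Tsc22d3, a textbook target of the glucocorticoid receptor, was not called. Each stretch runs 5′ to 3′ from 250 bases before to 50 bases after an annotated gene start, and was taken from RefSeq on build GRCr8, the Brown Norway reference, so it is not the sequence of either strain. Capitals mark GAGGAA or its reverse complement in the first 3 stretches, the core of the motif bound by PU.1, a transcription factor of microglia and other myeloid cells. In the stretch of Tsc22d3 they mark ACANNNTGT, the core of the glucocorticoid response element, whose other strand reads the same.
Itgam, chr1:192089342-192089641, plus strand: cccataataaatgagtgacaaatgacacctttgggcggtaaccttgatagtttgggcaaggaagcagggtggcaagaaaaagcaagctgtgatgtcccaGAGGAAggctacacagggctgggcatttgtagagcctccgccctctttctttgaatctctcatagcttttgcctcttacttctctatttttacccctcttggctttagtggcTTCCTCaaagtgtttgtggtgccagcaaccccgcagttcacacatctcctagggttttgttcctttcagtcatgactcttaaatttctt
Siglec5, chr1:102904656-102904955, plus strand: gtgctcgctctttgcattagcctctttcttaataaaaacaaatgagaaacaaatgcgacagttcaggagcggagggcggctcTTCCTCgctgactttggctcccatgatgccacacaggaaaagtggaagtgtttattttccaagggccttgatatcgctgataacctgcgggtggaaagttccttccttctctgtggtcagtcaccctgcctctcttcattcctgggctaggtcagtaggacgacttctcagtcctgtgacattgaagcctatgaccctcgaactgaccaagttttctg
C3ar1, chr4:157756481-157756780, minus strand: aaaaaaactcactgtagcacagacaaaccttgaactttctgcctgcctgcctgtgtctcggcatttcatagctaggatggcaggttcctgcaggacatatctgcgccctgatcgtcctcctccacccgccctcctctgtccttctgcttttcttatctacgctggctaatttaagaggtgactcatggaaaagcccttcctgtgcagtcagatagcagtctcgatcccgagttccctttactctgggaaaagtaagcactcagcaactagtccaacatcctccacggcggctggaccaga
Tsc22d3, chrX:109065381-109065680, minus strand, 1 of its 3 annotated starts: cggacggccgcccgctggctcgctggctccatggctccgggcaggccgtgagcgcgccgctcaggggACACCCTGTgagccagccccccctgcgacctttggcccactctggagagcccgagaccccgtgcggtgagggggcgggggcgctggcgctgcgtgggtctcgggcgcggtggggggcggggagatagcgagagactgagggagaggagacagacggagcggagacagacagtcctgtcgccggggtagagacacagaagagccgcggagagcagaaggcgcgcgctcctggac
The GAGGAA core occurred 2 times in the Itgam stretch, 1 time in that of Siglec5 and 0 times in that of C3ar1. It was found for 45 of the 126 called genes with a promoter entry (35.7%) and for 29.2% of all 27457 genes with an entry. Of 13 called immune genes with an entry, 7 had it (53.8%). Among them were Itgam, Siglec5 and Gbp6, called higher in F344/NHsd, and Cmklr1, Tlr10 and Oas1h, called lower. ACANNNTGT occurred for 1 of 40 stress genes with an entry, namely Tsc22d3, against 7.31% of all genes. The Tsc22d3 stretch shown is the 1 of its 3 windows with a match, and each of the others had 0. These matches describe letters in a window and carry no information on binding.

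The 6 libraries resembled each other closely. Pearson's r across features ran from 0.9977 to 0.9988 within strains and from 0.9967 to 0.9981 between them. Library medians lay between 8.32 and 8.37 on the deposited log2 scale. Neuronal markers summed to 17.18 to 17.27 in F344/NHsd and 17.12 to 17.19 in LEW/SsNHsd, and 5 markers of the Y chromosome to 11.97 to 12.26 over all 6 animals. Mean levels of some markers of adjoining tissue leaned one way. The 10 meningeal markers, with a summed level of 15.22 to 15.36 in F344/NHsd and 15.51 to 15.68 in LEW/SsNHsd, all had a lower mean in F344/NHsd, as did all 10 choroid plexus markers, with sums of 14.90 to 15.19 and 15.14 to 15.51. None of these 20 markers was called, with an unadjusted p under 0.05 for 3 and 2 of them, while Aldh1a2 of the meningeal list was called lower in the table of Ensembl 96 genes described below (-0.50, adjusted p = 0.0359, limma). The 10 striatal markers each had a higher mean in F344/NHsd, with sums of 14.69 to 14.75 against 14.52 to 14.63 and 0 calls at either threshold. Pineal markers stood high in LEW/SsNHsd replicates 1 and 2, with sums of 9.52 and 9.54, against 6.82 in replicate 3 and 6.56 to 6.80 in F344/NHsd. The part of these tissue differences in the results was not tested. In bulk tissue, fewer cells of a type and less RNA per cell cannot be told apart.

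A small part of the transcriptome measured differed between the strains. Values were taken from a table of RefSeq genes on a log2 scale set by the authors. Where a counterpart was found, results were looked up in a second table of the same animals quantified against Ensembl 96 genes. Of 20859 RefSeq features, 202 (0.968%) were called, 80 higher in F344/NHsd (0.384%) and 122 lower (0.585%). The count fell to 123 without F344/NHsd replicate 1 and to 131 without F344/NHsd replicate 3. A call means an adjusted p under 0.05 in limma, with Benjamini-Hochberg adjustment over all features and a spread shared by 189 animals of 71 strains. An unadjusted p under 0.05 was reached by 1258 features. The 3 + 3 animals did not overlap in any of the 202 calls, against 14.7% of all features. The median size of the called differences was 0.75 on the log2 scale, and 53 exceeded 1, of which 20 were higher and 33 lower in F344/NHsd. The median difference over all features was 0.003, with quartiles of -0.072 and 0.071.

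Most calls were of low level. Only 43 lay above the median level of 8.35, or 0.412% of the 10429 features there, against 1.52% of the features at or below it. The median standard error of a difference was 0.11 above that level and 0.15 below, so scarce transcripts were called more often in spite of a larger error. Loci known only by a LOC number gave 93 calls (1.95% of 4780), and genes with another symbol gave 109 (0.678%). By RefSeq type, 110 calls were protein-coding genes (0.696%) and 34 were long non-coding RNAs (1.36%), while 56 had no RefSeq entry of their symbol. The largest difference in either direction belonged to such a LOC feature. LOC100363502 had values of 8.47, 9.18 and 9.40 in F344/NHsd against 3.99, 3.84 and 4.48 in LEW/SsNHsd, and LOC120093056 had 6.95, 6.83 and 6.86 against 10.92, 10.96 and 10.92. Both differences were larger than any spread within a strain, at 4.92 ± 0.55 and -4.05 ± 0.33 (limma estimate ± SE).

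None of the stress genes was called. The 3 lists held ligands and receptors of the stress axis, corticosteroid receptors with the proteins that handle them and their hormone, and genes that glucocorticoids induce. Of 50 listed genes, 47 were tested and 0 were called, 1 with an unadjusted p under 0.05, against 0.968% of all features called. Their median difference was 0.032, beside 0.003 over all features, with 31 above 0 and 16 below. Single differences ran from -0.25 to 0.29. The 95% interval of the difference lay within 1 log2 unit of 0 for all 47 genes, as it did for 20552 of all 20859 features. Its median width was 0.54 in the 47 genes, of which 29 lay above the median level. These intervals are on the deposited scale, which may shrink differences of scarce transcripts, so they set no limit on fold changes in RNA level. The 3 + 3 animals did not overlap in 4 of the 47 genes (8.51%, against 14.7% of all features). In the Ensembl 96 table, 44 of the 47 were found and 0 were called, against 1.62% of all features there.

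**Figure D1:**
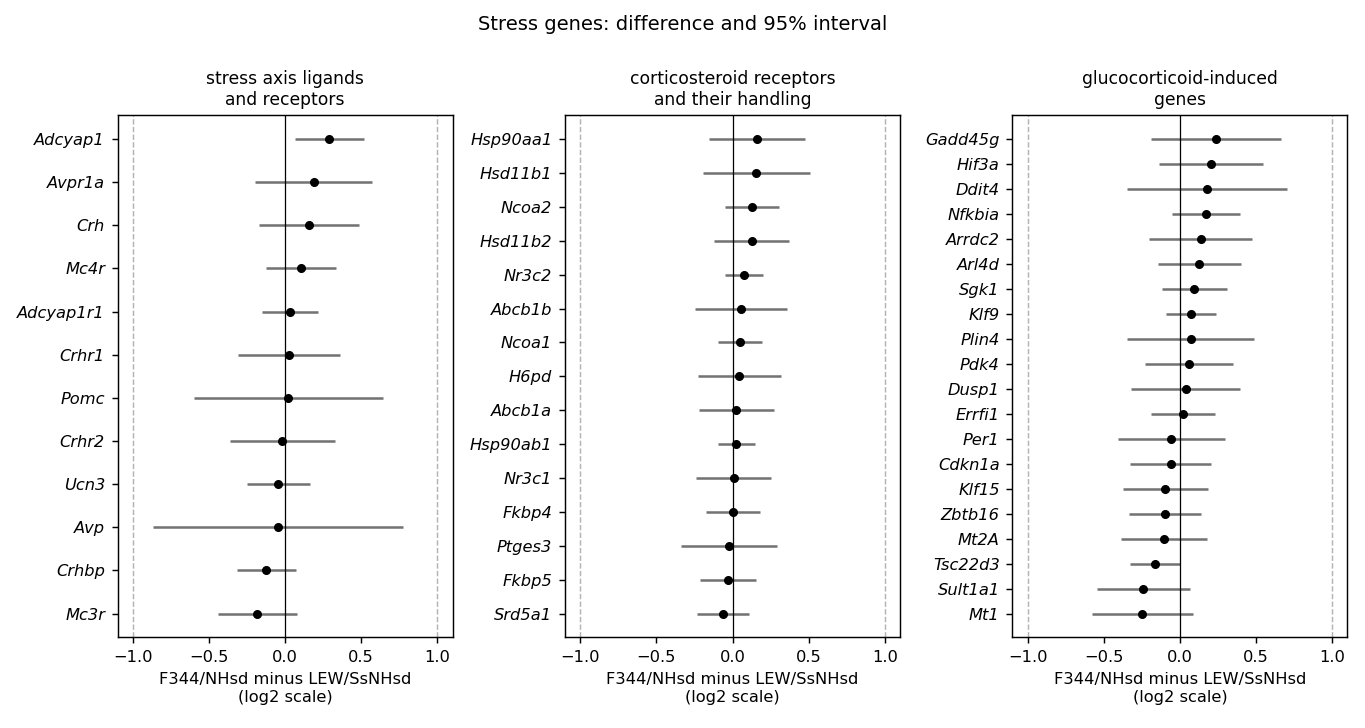
Difference of F344/NHsd minus LEW/SsNHsd on the log2 scale (horizontal axis) for the 47 tested stress genes, in a panel for each list, with 3 animals per strain. Points are the limma estimates, bars their 95% intervals and dashed lines a difference of 1, and every bar lies inside the dashed lines, the widest being that of Avp, from -0.87 to 0.77.

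Among the ligands, Crh, which encodes corticotropin-releasing hormone, had values of 6.47, 6.62 and 6.51 in F344/NHsd and 6.24, 6.34 and 6.55 in LEW/SsNHsd. Its difference was 0.16 ± 0.17 (SE), with a 95% interval from -0.17 to 0.49, and the third LEW/SsNHsd animal fell inside the F344/NHsd range. Avp, the vasopressin gene, ranged from 7.05 to 7.51 in F344/NHsd and from 6.95 to 7.56 in LEW/SsNHsd, so that the animals of a strain differed more than the strains did (difference -0.05 ± 0.41). Pomc, the precursor of adrenocorticotropic hormone and beta-endorphin, lay between 5.18 and 5.28 in F344/NHsd and between 5.02 and 5.35 in LEW/SsNHsd. Crhr1, the main receptor for corticotropin-releasing hormone in brain, differed by 0.03 ± 0.17. Crhbp, the secreted protein that binds and buffers the hormone, differed by -0.12 ± 0.10. All these values are of bulk brain tissue, so a difference confined to the hypothalamus could be diluted and was not measured.

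Adcyap1, which encodes the neuropeptide PACAP, was the stress gene with the smallest p. Its values were 9.49, 9.27 and 9.45 in F344/NHsd and 9.13, 9.18 and 9.04 in LEW/SsNHsd, a difference of 0.29 ± 0.11 with p = 0.0115 and an adjusted p = 0.415 by limma. Every F344/NHsd animal was above every LEW/SsNHsd animal, and the gene was singled out after its values were seen. LEW/SsNHsd held position 69 from the top of 71 strains for this gene and F344/NHsd position 22.

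The receptors for corticosteroids were not called. Nr3c1, the glucocorticoid receptor, had values of 12.14, 12.19 and 12.32 in F344/NHsd and 12.17, 12.12 and 12.33 in LEW/SsNHsd, with a difference of 0.01 ± 0.12 and an interval from -0.24 to 0.25. Nr3c2, the mineralocorticoid receptor, had 11.05, 11.07 and 11.14 against 11.03, 11.00 and 11.03, a difference of 0.07 ± 0.06. The strains overlapped for the first receptor and did not for the second. Fkbp5, the co-chaperone that lowers the receptor's affinity for hormone, had 9.97, 9.69 and 9.78 against 9.91, 9.92 and 9.68, with an interval from -0.21 to 0.15. Hsd11b1, the enzyme that regenerates active glucocorticoid inside cells, differed by 0.16 ± 0.18.

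Genes induced by glucocorticoids gave a median difference of 0.050. Tsc22d3 encodes the leucine zipper protein GILZ, and the stretch shown above covers 1 of its 3 annotated starts. Tsc22d3 had values of 11.50, 11.42 and 11.31 in F344/NHsd and 11.60, 11.55 and 11.57 in LEW/SsNHsd. All F344/NHsd values were below all LEW/SsNHsd values, by 0.17 ± 0.08 on average (p = 0.051, adjusted p = 0.83 by limma). Sgk1, a kinase that glucocorticoids raise, had 11.48, 11.09 and 11.00 against 11.11, 11.22 and 10.96, a difference of 0.09 ± 0.11 of the other sign. Mt1, a metallothionein, had 7.42, 7.42 and 7.14 against 7.59, 7.50 and 7.63. Among 16 immediate early genes, which mark recent neuronal activity, 14 had a higher mean in F344/NHsd, as had 10699 of all 20859 features, and the median difference was 0.155. Of the 16, 0 were called, against 0.968% of all features, and 0 had an unadjusted p under 0.05. Npas4 differed most in that list, by 0.40 ± 0.29.

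Lists of transmitter genes had 0 calls in the RefSeq table, where 0.968% of all features were called. In the dopamine list 15 genes were tested and their median difference was -0.013. For 24 serotonin and noradrenaline genes the median was 0.009, with 1 gene at an unadjusted p under 0.05, Htr1d, a serotonin autoreceptor (-0.30 ± 0.11, adjusted p = 0.404 by limma). The medians were -0.042 for 15 opioid and endocannabinoid genes, 0.046 for 17 GABA-A receptor subunits and 0.089 for 24 glutamate receptor subunits, with 0 genes at an unadjusted p under 0.05 in those 3 lists or in the dopamine list. In the Ensembl 96 table, 1 member of these lists was called, the serotonin receptor Htr1a, against 1.62% of all features. It had 7.62, 7.56 and 7.47 in F344/NHsd and 7.29, 7.23 and 7.27 in LEW/SsNHsd in the RefSeq table, without overlap, and a difference of 0.29 in both tables (adjusted p = 0.98 in the RefSeq table and 0.0262 in the Ensembl 96 table, limma). Striatal genes such as Drd1, Drd2 and Penk belong to these lists too, and the striatal markers, none of them called, had higher means in F344/NHsd as given above.

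Above the median level, 19 features were called higher in F344/NHsd and 24 lower. The rule for naming genes leaves out LOC loci and similar provisional symbols. By it, 12 symbols qualified as higher and all were named, and the 12 largest of 20 were named as lower. The plot of single animals shows these 24 genes, in which the strains were separate because the naming rule required it.

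**Figure D2:**
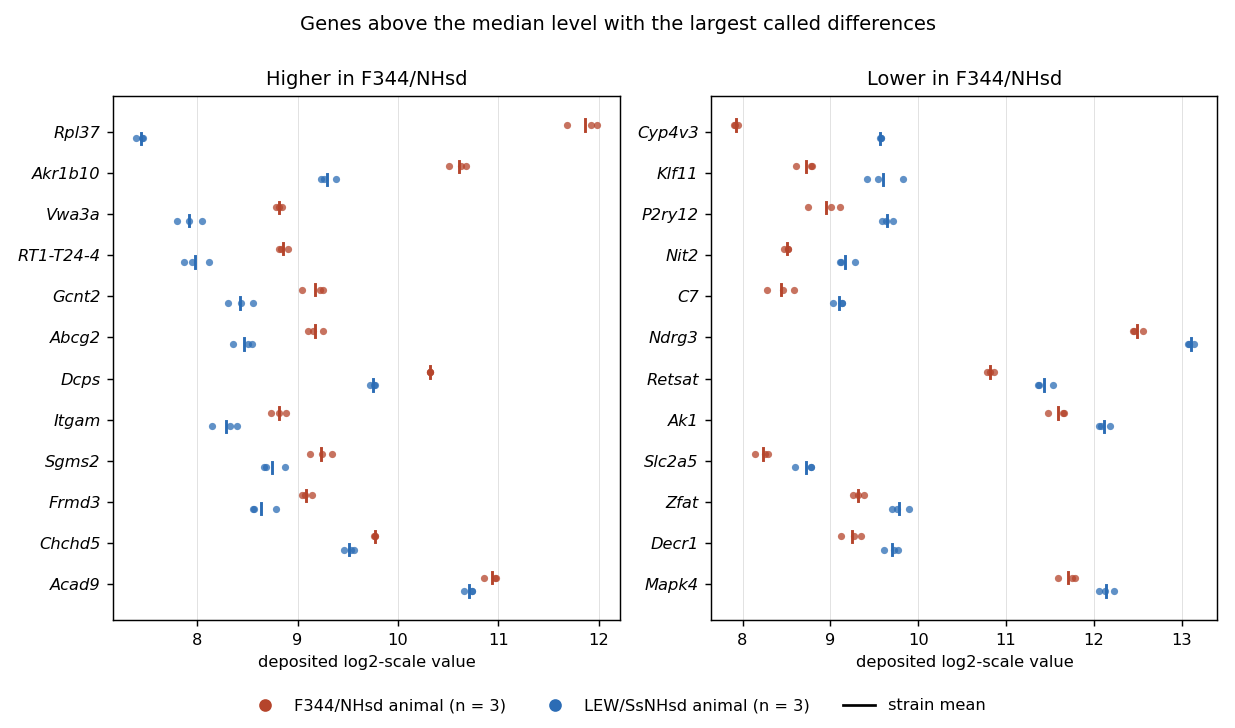
Deposited log2-scale values (horizontal axis) of each of the 3 F344/NHsd and 3 LEW/SsNHsd animals for the 24 named genes, with points for animals and vertical ticks for strain means. By the naming rule the animals of the strains do not overlap for any gene, and apart from Rpl37 the gaps between means run from 0.23 (Acad9) to 1.65 (Cyp4v3).

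Akr1b10 and Abcg2 were the detoxification and transport genes among the named higher calls. Akr1b10, an aldo-keto reductase that reduces retinal and lipid aldehydes, had values of 10.63, 10.51 and 10.68 in F344/NHsd and 9.38, 9.23 and 9.27 in LEW/SsNHsd. The difference of 1.31 ± 0.14 is 2.48-fold on the scale of the values (adjusted p = 1.22e-12, limma). Akr1b10 had no counterpart in the Ensembl 96 table. Abcg2, the efflux transporter of the blood-brain barrier (chr4:88832178-88901617 on rn6), had 9.11, 9.15 and 9.25 against 8.36, 8.50 and 8.54. The lowest F344/NHsd animal exceeded the highest LEW/SsNHsd animal, and the difference was 0.70 ± 0.14 here and 0.72 in the Ensembl 96 table, with a call in both. Reading the calls for function after their values were seen, 8 belonged to detoxification, 6 higher and 2 lower in F344/NHsd (all calls, 80 higher and 122 lower), and all 5 with a counterpart in the Ensembl 96 table were called there in the same direction. Nqo2, a quinone reductase, was 0.73 ± 0.16 higher. The N-acetyltransferase paralogs Nat8f1 and Nat8f2 moved apart, by 0.81 ± 0.15 and -0.93 ± 0.20, and reads of such near-identical copies may be divided wrongly between them.

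Aldh1a3, which makes retinoic acid from retinal, was the 1 call among 15 alcohol and aldehyde metabolism genes, whose median difference was -0.048 (0.968% of all features were called). It had 4.91, 5.19 and 5.22 in F344/NHsd and 5.70, 5.85 and 5.64 in LEW/SsNHsd, all F344/NHsd animals lying lower, with a difference of -0.63 ± 0.14 (adjusted p = 0.0037, limma). It was a call in 4 of 6 fits without an animal. F344/NHsd stood at position 70 of 71 strains for this gene. Of 21 glutathione S-transferases, which conjugate reactive compounds to glutathione, 17 had a lower mean in F344/NHsd, with a median of -0.134 and 0 called, and 1 called after centring and in the 6 animals alone. An unadjusted p under 0.05 was reached by 3 of them. Gstt3 came nearest, with 10.61, 10.52 and 10.51 against 10.87, 11.09 and 10.99. That difference of -0.44 ± 0.12 missed the threshold (adjusted p = 0.0525), and in the Ensembl 96 table it was -0.61 and called (adjusted p = 0.000296).

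Of 14 calls for mitochondria and lipid metabolism, grouped after their values were seen, 11 were lower and 3 higher in F344/NHsd, beside 122 lower and 80 higher among all calls. These counts carry no test, and 11 of the 13 with a counterpart in the Ensembl 96 table were called there in the same direction. Cyp4v3, a fatty acid omega-hydroxylase of the cytochrome P450 family (chr16:50111306-50136727 on rn6), had values of 7.95, 7.91 and 7.91 in F344/NHsd and 9.56, 9.58 and 9.57 in LEW/SsNHsd. The animals of each strain were nearly alike, and the strains differed by -1.65 ± 0.19, or 3.13-fold (adjusted p = 2.92e-11, limma), with -2.02 in the Ensembl 96 table. Acsm3, a mitochondrial medium-chain acyl-CoA synthetase (chr1:189514356-189543761 on rn6), was scarcer, with 5.21, 4.84 and 4.99 against 7.07, 7.12 and 7.30. It was 4.42-fold lower in F344/NHsd (difference -2.15 ± 0.32, adjusted p = 8.02e-07), and its family member Acsm5 was lower by 1.16 ± 0.17 on the log2 scale. Acsm3 and Acsm5 both lie on chromosome 1.

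Retsat, the retinol saturase, had 10.82, 10.87 and 10.78 in F344/NHsd and 11.38, 11.54 and 11.37 in LEW/SsNHsd. Decr1, a mitochondrial reductase needed to oxidise unsaturated fatty acids, had 9.12, 9.35 and 9.27 against 9.62, 9.77 and 9.73. Both were lower in every F344/NHsd animal, by 0.61 ± 0.12 and 0.46 ± 0.12 on the log2 scale, and both were called in the Ensembl 96 table too, although Decr1 was a call in 2 of 6 fits without an animal. Pex11a, which acts in the division of peroxisomes, differed by -0.65 ± 0.13, Clybl, a mitochondrial lyase of citramalyl-CoA, by -0.43 ± 0.12, and Mccc2, a subunit of methylcrotonyl-CoA carboxylase in leucine breakdown, by -0.27 ± 0.07. The exceptions were Sgms2, a sphingomyelin synthase (0.49 ± 0.11), Chchd5, a small mitochondrial protein (0.25 ± 0.07), and Acad9, an assembly factor of respiratory complex I (0.23 ± 0.06). Chchd5 and Acad9 were not called in the Ensembl 96 table (adjusted p = 0.553 and 0.0592) or in the 6 animals alone (0.177 and 0.275), and were calls in 0 and 1 of the 6 fits that left out an animal.

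Genes of microglia were called in both directions. Itgam, the integrin chain CD11b of microglia (chr1:199495298-199644035 on rn6), had values of 8.74, 8.89 and 8.82 in F344/NHsd and 8.32, 8.39 and 8.14 in LEW/SsNHsd. P2ry12, the ADP receptor of resting microglia (chr2:149404487-149482812 on rn6), had 8.75, 9.01 and 9.11 against 9.71, 9.63 and 9.59. The first was thus higher in every F344/NHsd animal (difference 0.53 ± 0.13, 1.44-fold, adjusted p = 0.0192 by limma) and the second lower in every one (-0.69 ± 0.16, 1.61-fold, adjusted p = 0.00811). In the Ensembl 96 table the differences were 0.79 and -0.88, both called. With the replicate number as a block in the 6 animals alone the adjusted p was 0.0522 for Itgam and 0.0573 for P2ry12. Leaving out single animals, Itgam remained a call in 2 of 6 fits and P2ry12 in 4 of 6. The other 10 of the 12 microglial markers were not called (0.968% of all features were). A lower mean in F344/NHsd was found for 10 of the 12 and for 10160 of all 20859 features, and the list summed to 13.44 to 13.60 in F344/NHsd and 13.59 to 13.74 in LEW/SsNHsd.

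Reading the calls for immune function after their values were seen gave 16 genes, 4 higher and 12 lower in F344/NHsd (all calls, 80 and 122), of which 3 lay above the median level. Of the 14 with a counterpart in the Ensembl 96 table, 10 were called there in the same direction. The largest was Fcrl2, an Fc receptor-like gene (chr2:186594453-186606172 on rn6), with 8.51, 8.72 and 8.60 in F344/NHsd and 6.77, 6.81 and 6.58 in LEW/SsNHsd. No values of the strains came near each other, and the difference was 1.89 ± 0.20, or 3.70-fold (adjusted p = 1e-12), and 1.98 in the Ensembl 96 table. Siglec5, an inhibitory sialic acid receptor of myeloid cells, had 7.05, 7.44 and 7.35 against 6.45, 6.37 and 6.51 and differed by 0.84 ± 0.15. Gbp6, a guanylate-binding protein, differed by 0.93 ± 0.19.

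The lower calls of that grouping included the following genes. Ifnlr1, the receptor chain for lambda interferons, had 5.58, 5.52 and 5.19 in F344/NHsd and 6.57, 6.41 and 6.50 in LEW/SsNHsd (difference -1.06 ± 0.15). C3ar1, the receptor for complement fragment C3a, had 7.38, 7.61 and 7.57 against 8.55, 8.46 and 8.25. Its difference of -0.90 ± 0.20 was called here (adjusted p = 0.00322, limma) and was -0.28 without a call in the Ensembl 96 table (adjusted p = 0.284). Gpr183, an oxysterol receptor that guides immune cells, differed by -0.54 ± 0.12, Cmklr1, the chemerin receptor, by -0.61 ± 0.17, and Tlr10, a Toll-like receptor, by -0.93 ± 0.24. C7, a component of the complement attack complex, had 8.28, 8.46 and 8.59 against 9.03, 9.13 and 9.14, a difference of -0.66 ± 0.18 (adjusted p = 0.0463), which was not called in any of the 6 fits that left out an animal. Meningeal markers had a median difference of -0.299 over the 10 with 0 called and 3 at an unadjusted p under 0.05, and their part in the value of C7 was not tested.

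The list of 23 interferon-stimulated genes had a median difference of 0.144 and 21 members with a higher mean in F344/NHsd, with 0 called (0.968% of all features were) and 3 at an unadjusted p under 0.05. In the 6 animals alone 1 member was called. Ifi27 had 10.33, 10.44 and 10.24 in F344/NHsd and 9.71, 9.87 and 9.92 in LEW/SsNHsd, without overlap. Its difference of 0.50 ± 0.19 was not called here (adjusted p = 0.361, limma) and was 0.62 and called in the Ensembl 96 table (adjusted p = 0.0341). Oas1b, an antiviral gene of the oligoadenylate synthetase family, went the other way in all 3 animals, with 6.68, 6.81 and 6.51 against 7.27, 7.20 and 7.00 and an adjusted p = 0.29. Its paralogs Oas1f and Oas1h were called lower, at low levels of 2.73 to 2.83 and 1.39 to 1.52 in F344/NHsd.

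Genes of the rat major histocompatibility complex, RT1 on chromosome 20, present peptides to T cells and differ between inbred strains in sequence and in number. F344 and Lewis rats carry related RT1 haplotypes. Of 27 class I and other RT1 features outside class II, 9 were called, 2 higher and 7 lower in F344/NHsd, against 0.968% of all features, and 19 had an unadjusted p under 0.05, against 1258 of all 20859. Of the 27, 5 were called in the Ensembl 96 table, against 1.62% of all features there, and some, such as RT1-CE11 and RT1-CE15, had no counterpart in it. Their median difference was -0.388, beside 0.003 over all features. All 9 are members of multigene families whose reads can be shared between near-identical copies and may map unequally to a reference from another strain, so their values are uncertain as measures of single genes.

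**Figure D3:**
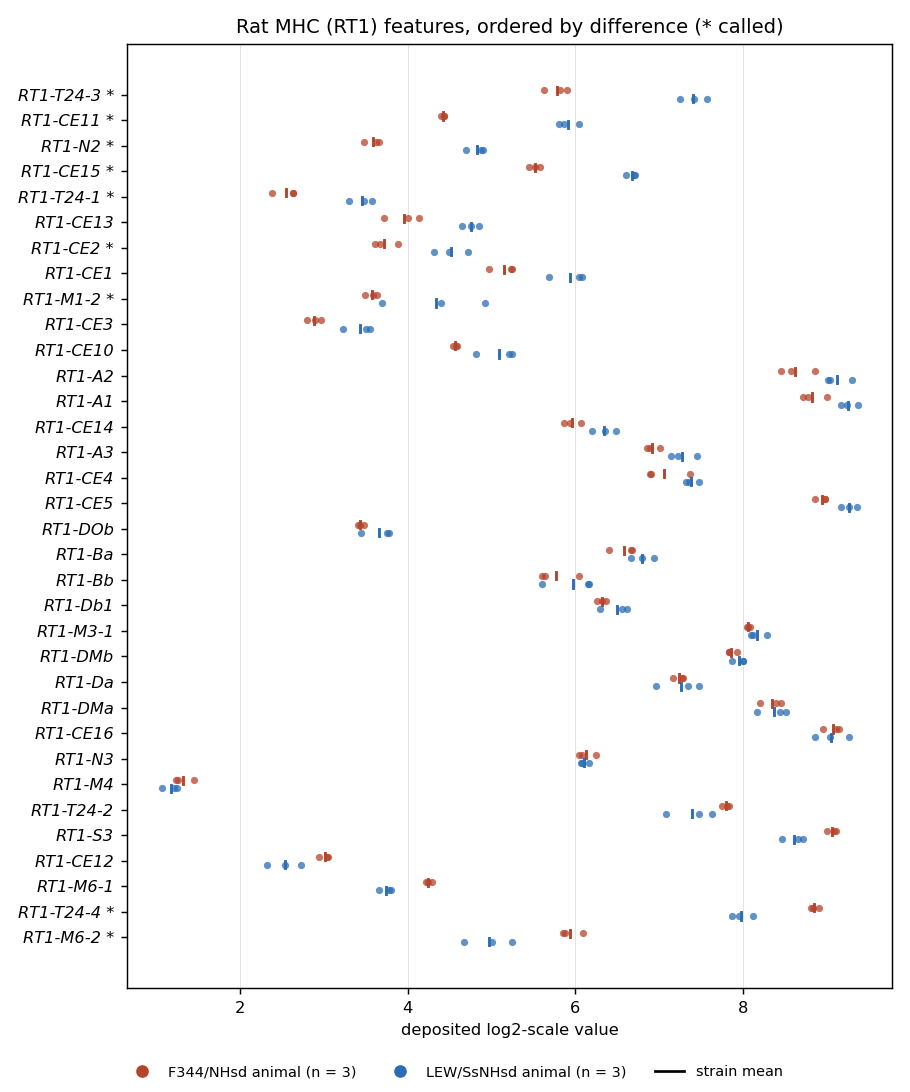
Deposited log2-scale values (horizontal axis) of the 3 F344/NHsd and 3 LEW/SsNHsd animals for 34 RT1 features, ordered from the lowest to the highest difference, with points for animals, ticks for strain means and stars for calls. Called features run from RT1-T24-3, lower in F344/NHsd by 1.63, to RT1-M6-2, higher by 0.97, and the class II features lie in the middle of the order.

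The paralogs of the RT1-T24 group went in opposite directions. RT1-T24-3 had values of 5.62, 5.91 and 5.82 in F344/NHsd and 7.25, 7.41 and 7.57 in LEW/SsNHsd, a difference of -1.63 ± 0.24 (adjusted p = 6.74e-07, limma). RT1-T24-4 had 8.82, 8.90 and 8.83 against 7.95, 8.12 and 7.87, a difference of 0.87 ± 0.16. RT1-T24-1, near the bottom of the scale, was lower in F344/NHsd by 0.90 ± 0.20. In the Ensembl 96 table the first was -0.34 and the second 0.42, called in both cases and of smaller size.

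RT1-CE11 had 4.43, 4.43 and 4.39 in F344/NHsd and 5.81, 6.05 and 5.87 in LEW/SsNHsd, and RT1-CE15 had 5.53, 5.58 and 5.45 against 6.71, 6.72 and 6.61. These class I features were lower in F344/NHsd by 1.49 ± 0.26 and 1.16 ± 0.21, and RT1-N2 was lower by 1.24 ± 0.24. RT1-CE2 was lower by 0.79 ± 0.22 with an adjusted p = 0.0473 and was a call in 0 of 6 fits without an animal. RT1-M1-2 had 3.58, 3.50 and 3.64 against 4.93, 4.40 and 3.70, so that the third LEW/SsNHsd animal lay next to the F344/NHsd animals, and its difference ranged from -1.09 to -0.48 when single animals were left out. Its call was kept in 1 of 6 such fits and was lost in the 6 animals alone (adjusted p = 0.3), with the replicate block (0.273) and after centring (0.0615). RT1-M6-2 was the second feature called higher, with 5.86, 6.10 and 5.88 against 5.01, 5.24 and 4.67. The abundant classical class I feature RT1-A1 had 9.00, 8.78 and 8.71 against 9.17, 9.37 and 9.24 and was not called (difference -0.43 ± 0.27).

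Of the 7 class II genes tested, 0 were called, against 0.968% of all features. All 7 had a lower mean in F344/NHsd, as had 10160 of all 20859 features. Their differences ran from -0.22 for RT1-Ba to -0.02 for RT1-Da, with a median of -0.177 and 0 at an unadjusted p under 0.05. Of 14 genes that help antigen presentation, 0 were called (0.968% of all features were), 1 had an unadjusted p under 0.05, and the median was -0.026. B2m, the light chain shared by class I molecules, had 12.71, 12.96 and 13.04 in F344/NHsd and 12.91, 12.92 and 12.96 in LEW/SsNHsd, a difference of -0.03 ± 0.14.

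Several named genes had other roles. Rpl37, a ribosomal protein gene with many processed copies, had 11.68, 11.93 and 11.98 in F344/NHsd and 7.46, 7.39 and 7.45 in LEW/SsNHsd, a difference of 4.43 ± 0.63 (adjusted p = 1.43e-07, limma). It had no counterpart in the Ensembl 96 table, and its reads may be shared with its copies. Dcps, which removes the cap from degraded messenger RNA, had 10.32, 10.31 and 10.32 against 9.72, 9.77 and 9.76, a difference of 0.57 ± 0.08. Dcps had no counterpart in the Ensembl 96 table either. Vwa3a, a gene of a von Willebrand factor domain protein, had 8.84, 8.82 and 8.78 against 7.80, 7.91 and 8.05. Frmd3, of the FERM domain family, differed by 0.45 ± 0.11 and by 0.85 in the Ensembl 96 table, and was a call in 2 of 6 fits without an animal. With the replicate block in the 6 animals alone Frmd3 was not called (adjusted p = 0.0922, limma).

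Among the lower genes of the naming rule, Ndrg3 of the NDRG family was the most abundant and was lower by 0.61 ± 0.10. Ak1, adenylate kinase of the cytosol, was lower by 0.51 ± 0.13 and was a call in 0 of 6 fits that left out an animal. Neither Ndrg3 nor Ak1 had a counterpart in the Ensembl 96 table. Nit2, an omega-amidase, had 8.47, 8.52 and 8.52 in F344/NHsd and 9.11, 9.12 and 9.28 in LEW/SsNHsd. Slc2a5, the fructose transporter that microglia carry in brain, differed by -0.49 ± 0.13 and was a call in 1 of those 6 fits. Differences were smaller for Zfat, a zinc finger gene of lymphoid cells, at -0.47 ± 0.11, and Mapk4, an atypical MAP kinase, at -0.43 ± 0.10. With the replicate block in the 6 animals alone neither was called (adjusted p = 0.0891 and 0.0679), Mapk4 was not called in the 6 animals alone without it either (0.0572), and each was a call in 4 of 6 fits without an animal. Hba-a3, an alpha globin gene with close copies, had 5.92, 5.96 and 5.74 against 7.55, 7.63 and 6.91 and was called lower. Its matched feature in the Ensembl 96 table had the opposite sign and no call (0.36). That feature stood far higher, with means of 13.49 in F344/NHsd and 13.12 in LEW/SsNHsd. The other 11 blood markers were not called and the blood list had a median of 0.101.

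The Ensembl 96 table quantified the same animals against another annotation, so it checks the processing and adds no animals. It gave 297 calls among 18309 features (1.62%), and 125 with the replicate block in the 6 animals alone. For 14554 genes a counterpart was found in both tables. Of these, 88 were called in the RefSeq table and 205 in the Ensembl 96 table, and 65 were called in both with the same direction, 20 higher and 45 lower in F344/NHsd. That is 73.9% of the matched RefSeq calls and 31.7% of the matched Ensembl 96 calls. The other 114 RefSeq calls had no counterpart. Above the median level, 21 of 27 matched calls were shared.

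**Figure D4:**
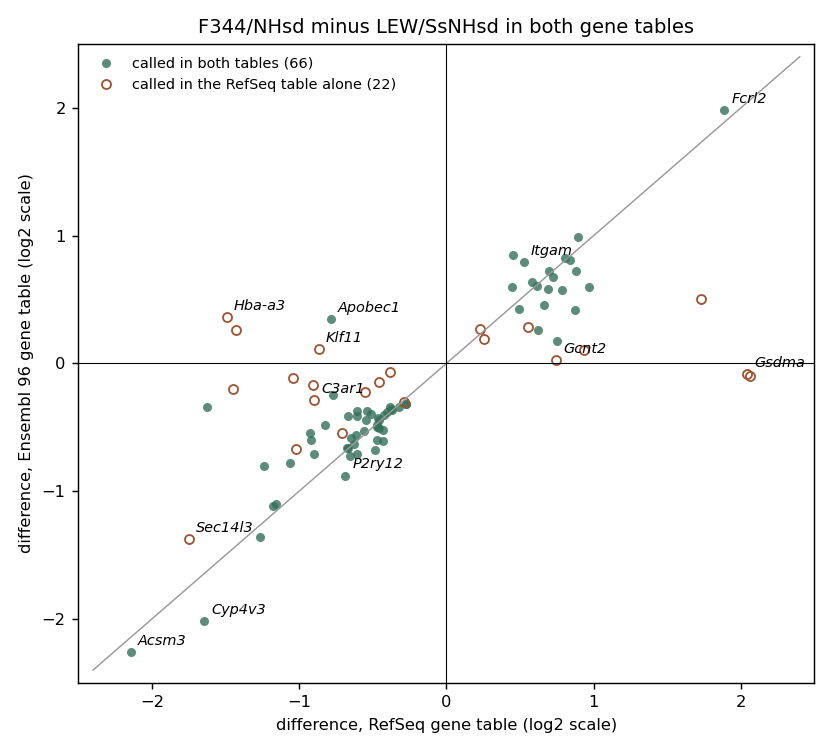
Difference of F344/NHsd minus LEW/SsNHsd (log2 scale) in the RefSeq gene table (horizontal axis) and the Ensembl 96 gene table (vertical axis) for the 88 matched genes called in the RefSeq table, with filled points for genes called in both (66, including Apobec1 of opposite sign), open points for the 22 called in the RefSeq table alone and a line of equality. Acsm3, Cyp4v3 and Fcrl2 lie near the line, while Gsdma, Klf11, Gcnt2 and Hba-a3 lie near or across 0 on the vertical axis.

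Some genes changed with the annotation. Klf11, a Krueppel-like transcription factor, had 8.79, 8.61 and 8.78 in F344/NHsd and 9.83, 9.41 and 9.54 in LEW/SsNHsd in the RefSeq table, a difference of -0.87 ± 0.16, and 0.11 without a call in the Ensembl 96 table. Gcnt2, which branches poly-N-acetyllactosamine chains, had 9.26, 9.22 and 9.05 against 8.55, 8.43 and 8.31, a difference of 0.75 ± 0.11, and 0.03 in the other table. Gsdma, a gasdermin, changed from 2.04 to -0.08 and Hba-a3 from -1.49 to 0.36. The matched Hba-a3 feature stood far higher there, with means of 13.49 in F344/NHsd and 13.12 in LEW/SsNHsd. Apobec1, an RNA-editing cytidine deaminase, was called in both with opposite sign, -0.79 and 0.35. In all, 82 of the 88 had the same sign in both tables and 6 the opposite one. In the other direction, 139 matched genes were called in the Ensembl 96 table alone, 133 of them with the same sign in the RefSeq table, and Dcun1d2 went from 0.08 there to 1.45.

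Against the other strains of the panel, LEW/SsNHsd lay farther from the median of the 71 strains in 115 of the 202 calls and F344/NHsd in 87 (43.1%), close to the 43.2% of all features for which F344/NHsd was the farther strain. LEW/SsNHsd was the farther strain in 75 of the 122 calls that were lower in F344/NHsd and in 40 of the 80 that were higher. F344/NHsd held an end of the panel in 6 calls and LEW/SsNHsd in 3, or 2.97% and 1.49%, beside 0.0719% and 0.264% of all features. Calls were selected for a large difference of the pair, which favours extreme positions among them in advance. Only 52 of the 71 strains had 3 or more animals, and means of fewer animals vary more. The other strains were sequenced in other batches for the most part. They include FXLE and LEXF recombinant inbred strains, bred from F344 and LE rats, so F344/NHsd was ranked partly against its relatives. These positions are a description without a test.

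**Figure D5:**
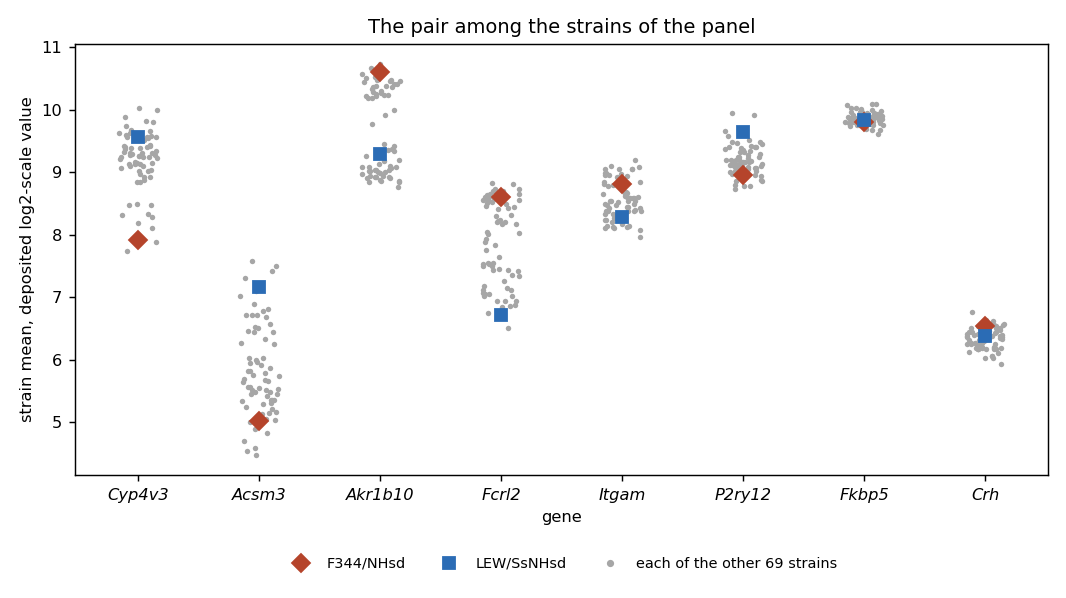
Strain means on the deposited log2 scale (vertical axis) for 8 genes (horizontal axis), with a diamond for F344/NHsd, a square for LEW/SsNHsd (3 animals each) and a small point for each of the other 69 strains. F344/NHsd is at position 69 from the top for Cyp4v3 and 4 for Akr1b10, LEW/SsNHsd at 70 for Fcrl2 and 5 for both Acsm3 and P2ry12, while for Fkbp5 the pair lies close together at 53 (F344/NHsd) and 44 (LEW/SsNHsd).

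Single genes differed in which strain lay farther from the panel median. Cyp4v3 had a panel median of 9.26, near the LEW/SsNHsd animals, and F344/NHsd was at position 69. The means below it belonged to FXLE20/Stm (7.89) and FXLE12/Stm (7.74), recombinant strains with F344 as a parent. Akr1b10 had a panel median of 9.42, again near LEW/SsNHsd at position 40, with F344/NHsd at position 4 (10.60). Other strains shared that upper level, such as BN/NHsdMcwi (10.61), LEXF11/Stm (10.67) and HXB25/Ipcv (10.58), so F344/NHsd did not stand apart from the panel. For Fcrl2 the panel median of 7.93 lay between the strains, at positions 11 and 70. P2ry12 had LEW/SsNHsd at position 5 and F344/NHsd at 60, and Itgam had F344/NHsd at 17 and LEW/SsNHsd at 57. Crh had F344/NHsd at 11 and LEW/SsNHsd at 30, while the strain means of all 71 strains spanned 5.92 to 6.76.

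The share of features called varied between the chromosomes. By RefSeq on GRCr8, 146 calls were placed among 18401 placed features (0.793%). Chromosome 20, which holds RT1, had 12 calls of 547 features (2.19%), chromosome 19 had 8 (1.52%) and chromosome 2, which holds P2ry12, Fcrl2 and C7, had 18 (1.46%). The nearest tested neighbour of a call was itself called in 15 cases (10.3%), and that of an uncalled feature in 0.74%.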

How the data were processed

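Both gene tables hold log2-scale values made by the authors. For the reconstructed brain transcriptome on rn6, guided by Ensembl 96, their methods describe removal of 1 unwanted factor (RUV) and a regularised log transform of estimated counts. Whether the Ensembl 96 gene table was made likewise, and how and on which genome the RefSeq table was made, is not given in the sources used here. The submitters' processing notes name cutadapt 1.9.1, HISAT2, StringTie and RSEM. Without counts the depth of a library is unknown, and fold changes are on the deposited scale. A regularised log pulls low values together and so shrinks differences of scarce transcripts.

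Libraries of one animal were averaged, values over 30 were set to missing (none in the 6 libraries), and spike-in features were left out. A strain-means layout was fitted in limma 3.58.1 (R 4.3.3), with the contrast F344/NHsd minus LEW/SsNHsd, a two-sided moderated test and Benjamini-Hochberg adjustment at 5% over all features. Errors are standard errors from that fit, with 118 residual degrees of freedom and 3 animals per strain. They include variation between batches within other strains and do not measure the spread of the 6 animals alone. The series text calls the animals of a strain biological replicates but names no litters. The 6 libraries share a batch label.

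The named genes were the 12 largest calls in each direction above the median level without overlap, every called member of a list, and 11 stress genes whatever their values. The 12 largest were taken without symbols that begin with LOC, RGD, AABR, AC or AY or end in -ps with digits, so larger LOC calls were passed over. Other genes were chosen after their values were seen. The members and lists were chosen with earlier results of these data known. Alternatives covered the animals that share the spread, batch terms, the replicate block, centring, filters, the variance prior, single animals left out and the Ensembl 96 table. Tables of isoforms, strain means and other annotations were not used here.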

Additional observations from a re-analysis of the deposited data

How the results depend on the processing

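For the 20859 RefSeq features, 202 calls became 272 in the 6 animals alone, 200 with the related substrains added, 199 and 192 with a batch term, 197 after centring and 194 with a trended prior. Requiring a difference above 1 left 53. Fitting the features above the median level of the table alone left 32, against 43 calls above the median level in the fit of all features. The first level was taken over all animals of the fit and the second over the 6 animals, and the adjustment covered unlike sets of features. The part of each in the counts was not tested. Leaving out 1 animal gave 123 to 154, with 123 without F344/NHsd replicate 1 and 131 without F344/NHsd replicate 3. The Ensembl 96 count of 297 became 202 in the 6 animals alone and 203 to 246 without 1 animal. With the replicate number as a block the counts were 211 in the RefSeq table and 125 in the Ensembl 96 table. The numbers are shared by the strains without a stated pairing: deviations of same-numbered animals correlated at 0.060, 0.054 and 0.259, and F344/NHsd replicate 1 correlated best with LEW/SsNHsd replicate 2 (0.231). List members called, leaving out the cell type marker lists, numbered 10 (13 with them), and 16 in the 6 animals alone, 9 in the Ensembl 96 table and 7 to 9 without 1 animal. Genes called in both tables numbered 65, and 55 when matched by symbol alone.

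Klf11 and Hba-a3 turned positive in the Ensembl 96 table, at 0.11 and 0.36, and the cause was not tested. For Hba-a3 the matched features stood at unlike levels. Means in F344/NHsd and LEW/SsNHsd were 5.87 and 7.37 in the RefSeq table and 13.49 and 13.12 in the Ensembl 96 table. Of the 34 named and called genes, 30 kept their call in the 6 animals alone, 26 with the replicate block, 31 after centring and 22 to 26 without 1 animal. C7, Decr1 and RT1-M1-2 lost theirs after centring. Among the 11 stress genes, none was called under any alternative run, and the sign turned without 1 animal for Crhr1 (-0.062 to 0.14), Avp (-0.22 to 0.091), Pomc (-0.076 to 0.086), Nr3c1 (-0.042 to 0.070), Fkbp5 (-0.11 to 0.032) and Sgk1 (-0.050 to 0.19). With 3 animals per strain and no counts, precision can be judged only from the standard errors, the single values and the fits without 1 animal.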

Other observations

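Pineal genes, which make melatonin, stood high in LEW/SsNHsd replicates 1 and 2 and not in replicate 3. Tph1, the tryptophan hydroxylase of the pineal gland, had values of 9.32, 9.14 and 5.46 in LEW/SsNHsd and 5.78, 5.64 and 5.14 in F344/NHsd. Asmt, which makes melatonin in its last step, had 3.97, 5.09 and 3.05 in LEW/SsNHsd and 2.74, 2.90 and 2.59 in F344/NHsd. None of the 5 pineal markers tested was called in the RefSeq table, and 3 had an unadjusted p under 0.05, while Asmt was called lower in F344/NHsd in the Ensembl 96 table at -0.82 (adjusted p = 0.0317, limma). The spread between the LEW/SsNHsd animals was larger for Tph1 than the difference between the strains.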
